A study of Oryza sativa Japonica Group with 6 samples.

Results

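The products osa-miR6250_R+1, osa-MIR6250-p5 and osa-miR1320-5p_L-1R+1 are 3 of the 486 miRNAs that the anther tables of tetraploid and diploid rice hold together. They were chosen by their normalized reads, which brought them into the table of the tetraploid and not into that of the diploid, so their higher level in the tetraploid is a description and carries no test. Anthers came from Taichung65-4x, an autotetraploid rice line made from Taichung65-2x with colchicine and then self-crossed for many generations, and from Taichung65-2x, its diploid counterpart, both grown in the field. Each line was sampled at pre-meiotic interphase (PMA), meiosis (MA) and the single microspore stage (SCP), with anthers 0.90 to 1.40, 1.45 to 1.95 and 1.50 to 2.05 mm long in Taichung65-4x and 0.75 to 0.85, 1.00 to 1.35 and 1.40 to 1.55 mm long in Taichung65-2x. Each of the 6 groups has 1 library, so every comparison below is between libraries, and a single tetraploid line stands for the ploidy, whose part cannot be told apart from that of the longer anthers at each stage.

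MicroRNAs are cut from the 2 arms of a hairpin transcript, and one strand is then held by an Argonaute protein and guides it to target mRNAs. In plants the 21 nt products of DICER-LIKE1 mostly enter AGO1, which favours a 5′ U, and the 24 nt products of DICER-LIKE3 mostly enter AGO4, which favours a 5′ A. miR1320 is a miRNA of rice that is known to act on an ERF transcription factor gene in the response to cold. In the names, R+1 marks 1 base more at the 3′ end than the miRBase sequence and L-1 marks 1 base less at the 5′ end, and p5 marks a product of the 5′ arm that miRBase did not hold.

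The sequences of the 3 products are shown because neither their length nor their first base is that of most miRNAs listed for the tetraploid alone. They are printed 5′ to 3′ as the deposited table gives them (T for U), with the seed, bases 2 to 8, in capitals.
osa-miR6250_R+1: gGGGATAGatcgacgcgtcaaga
osa-MIR6250-p5: tCGTCCTCtcttgttcttgtt
osa-miR1320-5p_L-1R+1: gGAACGGAggaattttatagg
osa-miR6250_R+1 is 23 nt long, and the other two are 21 nt. The seeds differ between the 3 products, and no other row of the tetraploid table or of the diploid table has any of them. Genome positions of the hairpins were not analysed here.

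The values are the authors' normalized reads, in which the copy number is multiplied by 1 factor per library. In all 9 values of the members this came out as whole reads, each read being worth 1.36, 0.906 and 0.797 at PMA-4x, MA-4x and SCP-4x. A miRNA entered the table of a ploidy when any of the 3 stages passed 10, and the lowest such highest value was 10.1 in Taichung65-2x. A product that is not listed for Taichung65-2x is therefore taken to lie at or under 10 there, which is 7 reads at PMA-2x, 10 reads at MA-2x and 11 reads at SCP-2x. Summed over listed miRNAs the libraries hold between 77399 and 113099 reads, 1.53% to 2.17% of the clean reads. miR2118 and miR2275, families known from the reproductive organs of grasses, were present in all of them with 41 rows and 28.2% to 32.0% of the listed signal in the tetraploid, against 42 rows and 22.2% to 40.5% in the diploid.

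osa-miR6250_R+1 stood at 19.0 at PMA, 18.1 at MA and 113 at SCP in Taichung65-4x, from 14, 20 and 142 reads. The first 2 stages were alike and the microspore stage was high. osa-MIR6250-p5, from the other arm of the same hairpin, stood at 9.51, 13.6 and 16.7, from 7, 15 and 21 reads. It lay near the limit at each stage and was the lowest of the 3 products in each library. osa-miR1320-5p_L-1R+1 stood at 42.1, 19.9 and 22.3, from 31, 22 and 28 reads, and as deposited was highest before meiosis, while with equal sums or clean reads SCP was higher than PMA. Among the 441 miRNAs listed for Taichung65-4x, osa-miR6250_R+1 moved up to rank 77 at SCP, while osa-miR1320-5p_L-1R+1 stayed between ranks 188.5 and 230.5 and osa-MIR6250-p5 between ranks 247 and 353.5.

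**Figure D1:**
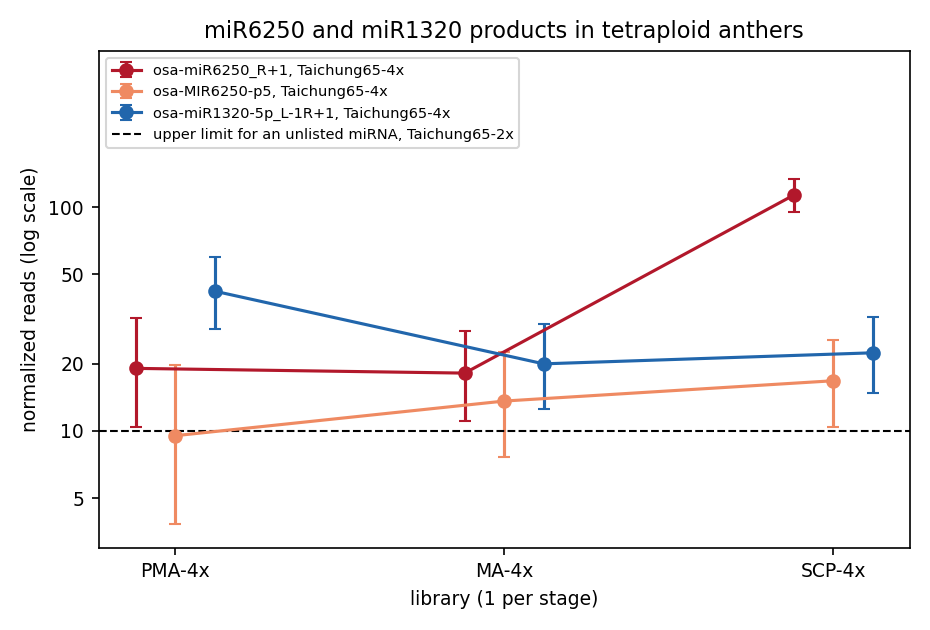
Normalized reads (log scale) of the 3 products in the Taichung65-4x libraries of the 3 stages, with exact Poisson 95% intervals of counting error; the dashed line is the upper limit of 10 for Taichung65-2x. osa-miR6250_R+1 reaches 113 at SCP, while osa-MIR6250-p5 lies between 9.51 and 16.7.

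At SCP, the value of osa-miR6250_R+1 was at least 11.3-fold above the value that the SCP-2x library can have had. The lower end of the counting interval of the tetraploid library brings this to 9.54-fold, and no count of SCP-2x enters it. With SCP-2x set at 11 reads and the counting error of both libraries included, the lower end was 6.28-fold. Set against the clean reads of both libraries, the bound was 11.6-fold. In bulk anthers, more cells that make a miRNA and more of it per cell cannot be told apart. Intervals here and below are 95% intervals of counting error and hold no biological variation.

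At PMA and MA, osa-miR6250_R+1 was above the limit by 1.90-fold and 1.81-fold, less than the 2-fold that counts as a call. With the diploid set at 7 and 10 reads and both libraries counted, the lower ends were 0.762 and 0.858. These intervals thus include no difference. The deposited values give the level in Taichung65-2x at these stages only as at most 10. The value of osa-miR1320-5p_L-1R+1 was at least 4.21-fold above the value that the Taichung65-2x library can have had at PMA and at least 2.23-fold at SCP. At MA its bound was 1.99-fold. The lower ends of the counting intervals of the tetraploid libraries bring these to 2.86-fold at PMA, 1.48-fold at SCP and 1.25-fold at MA. With the diploid reads set at the limit and both libraries counted, the lower ends were 1.93 at PMA, 1.10 at SCP and 0.960 at MA. Within counting error the bound at SCP thus falls under 2-fold. With both libraries counted, that at PMA does too, and the interval at MA includes no difference. osa-MIR6250-p5 gave bounds of 1.36-fold at MA and 1.67-fold at SCP, with lower ends of 0.761 and 1.04. With both libraries counted its lower ends were 0.605 and 0.790. At PMA it lay under the limit, so the table gives no bound there.

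In sum 1 of the 3 products was over 2-fold above the limit at PMA, 0 at MA and 2 at SCP. Over all miRNAs, 5.54%, 5.26% and 13.4% were over 2-fold higher in Taichung65-4x at these stages, and 5.54%, 9.21% and 10.2% were over 2-fold lower. Since absence from the diploid table chose the members, nothing is read from this. The counts set the diploid at the limit of 10, so the 0 at MA does not mean that the ploidies were alike. The authors, who also used a chi-square or Fisher test, called osa-miR6250_R+1 and osa-miR1320-5p_L-1R+1 up-regulated in the tetraploid at all 3 stages. They called osa-MIR6250-p5 up-regulated at MA and SCP and not significant at PMA. At MA both osa-miR6250_R+1 and osa-miR1320-5p_L-1R+1 passed 2-fold once both libraries were given the same sum, were centred on the median ratio, or were divided by their clean reads. These scalings raised the MA ratios by 0.31, 0.24 and 0.31 on the log2 scale. At SCP osa-MIR6250-p5 passed 2-fold with equal sums (2.13-fold).

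Of the rows just inside the limit, zma-miR2275b-5p_R-3_1ss12CG is listed for the tetraploid alone with a highest value of 10.2. Just outside the set listed for the tetraploid alone are tae-miR167b_R+1_2ss9AC21AG and PC-3p-418157_44, which entered the diploid table too with a highest value of 10.1 there. No row of the 402 in the diploid table belongs to the family of miR1320 or of miR6250, and none shares 16 or more consecutive bases with any of the 3 products. The longest shared run was 8 bases for osa-miR6250_R+1, 7 for osa-MIR6250-p5 and 10 for osa-miR1320-5p_L-1R+1. A shifted form of these products under another name was thus not found among the listed rows.

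The rows that share 10 bases with osa-miR1320-5p_L-1R+1 are shown because they are its nearest sequences and are listed for both ploidies. The capitals mark the shared run, which takes the first 10 bases of miR1320 in one case and its last 10 in the other.
osa-miR1320-5p_L-1R+1: GGAACGGAGGaattttatagg
hvu-miR1436_L+3_2ss5CT13GA: cttatattatGGAACGGAGGgagt
osa-miR1320-5p_L-1R+1: ggaacggaggaATTTTATAGG
PC-5p-72854_262: acgagacATTTTATAGGacaataa
The run begins at base 11 of the miR1436 form and at base 8 of PC-5p-72854_262, so neither shares the seed, and both are 24 nt long. hvu-miR1436_L+3_2ss5CT13GA stood at 15.6, 14.0 and 21.9 in the tetraploid, against 15.5, 7.55 and 11.1 in the diploid, in stage order. PC-5p-72854_262, a predicted hairpin, stood at 39.4, 83.3 and 90.1 in the tetraploid, against 37.7, 30.7 and 36.9 in the diploid. At PMA both of these rows had nearly the same level in the 2 ploidies.

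From MA to SCP in Taichung65-4x, osa-miR6250_R+1 rose 6.25-fold (3.90 to 10.5), the third largest ratio of the 390 miRNAs compared. Only miRNAs with one of the values over 10 were counted, and at this step 9.23% of them rose over 2-fold and 21.3% fell. Against PMA it was 5.95-fold higher at SCP (3.43 to 11.2), where 15.4% of 421 miRNAs rose over 2-fold and 46.1% fell. The other 81 rows listed for the tetraploid alone, also chosen by their values, mostly did not fall. From MA to SCP 9 of 65 of them rose and 1 fell (median 0.34 on the log2 scale). For SCP against PMA 28 of 68 rose and 11 fell (median 0.90). Of all 84 rows listed for the tetraploid alone, 46 were highest at SCP. Of the 3 products, 1 rose and 0 fell in each of these comparisons. Between PMA and MA osa-miR6250_R+1 hardly moved, with a ratio of 0.952 (0.458 to 2.04), although the 3 other scalings turned it to 1.42, 1.36 and 1.44. The median of all miRNAs was −0.58, −0.31 and −0.72 on the log2 scale for MA against PMA, SCP against MA and SCP against PMA. Relative to it osa-miR6250_R+1 stood 0.51, 2.95 and 3.30 higher.

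osa-MIR6250-p5 had smaller ratios at both steps that end at SCP. Its ratio was 1.43 (0.548 to 4.14) for MA against PMA, 1.23 (0.606 to 2.57) for SCP against MA and 1.76 (0.721 to 4.90) for SCP against PMA. As deposited, each of these intervals includes no change. With equal sums, the median ratio or clean reads as the scaling, its ratio of SCP to PMA became 3.70, 2.66 and 4.04, and its ratio of MA to PMA became 2.13, 2.04 and 2.16, all over 2-fold. The intervals move with the ratios, and under these scalings that of SCP to PMA no longer includes no change. That of MA to PMA still includes it under each of them.

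osa-miR1320-5p_L-1R+1 was 2.11-fold lower at MA than at PMA (1.18 to 3.83), a step at which 29.2% of 397 miRNAs fell over 2-fold and 10.3% rose. It was the 1 product of the 3 called there. Under the 3 other scalings it was 1.42-fold, 1.48-fold and 1.39-fold lower, which ends the call. With equal sums, 79 miRNAs rose and 36 fell at this step, against 41 and 116 as deposited. For SCP against MA 81 rose and 33 fell (36 and 83 as deposited), and for SCP against PMA 166 rose and 97 fell (65 and 194 as deposited). Relative to the median of all miRNAs osa-miR1320-5p_L-1R+1 was at −0.49 on the log2 scale. From MA to SCP its ratio was 1.12 (0.618 to 2.05), and for SCP against PMA 0.530 (0.306 to 0.913). The last ratio turned to 1.11 and 1.22 under equal sums and clean reads. The scalings raised the ratios of MA to PMA by 0.58, 0.51 and 0.60 on the log2 scale, those of SCP to MA by 0.49, 0.35 and 0.60 and those of SCP to PMA by 1.07, 0.60 and 1.20.

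**Figure D2:**
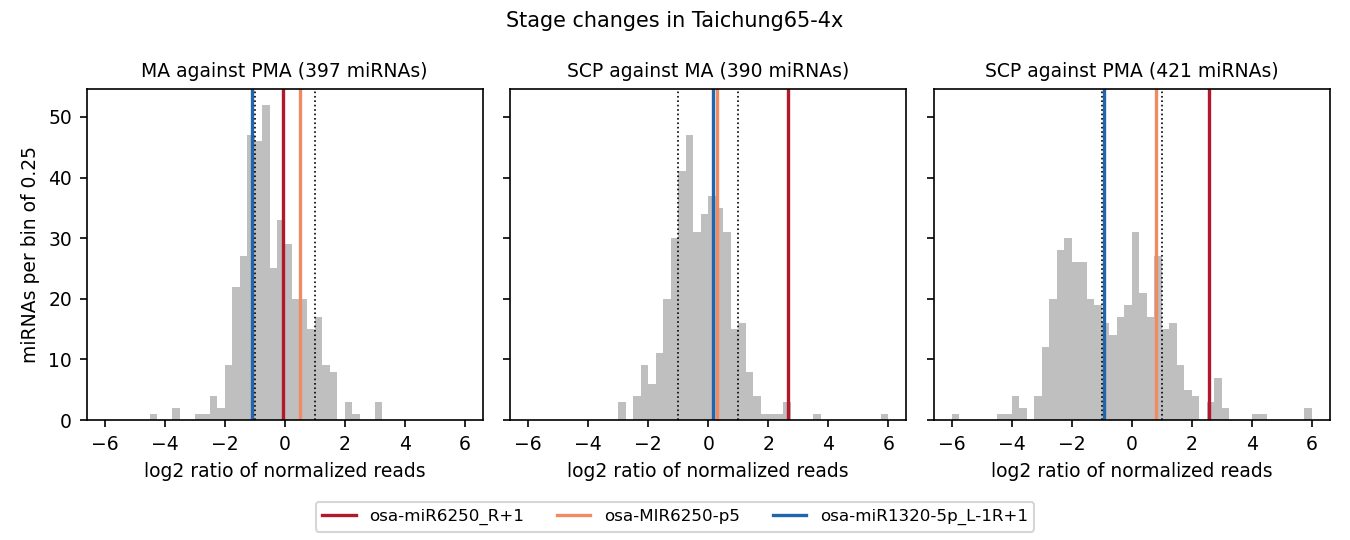
Histograms of the log2 ratio of normalized reads between stages of Taichung65-4x for all miRNAs tested (grey, bins of 0.25), with the 3 products as coloured lines 2-fold as dotted lines and ratios beyond the axis in the end bins. osa-miR6250_R+1 lies in the upper tail at both steps that end at SCP, and osa-miR1320-5p_L-1R+1 just beyond 2-fold lower at MA against PMA, which it is not under the other scalings.

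The arms of the miR6250 hairpin parted at the microspore stage. The ratio of osa-miR6250_R+1 to osa-MIR6250-p5, which no scaling of the library can change, was 2.00 at PMA (0.755 to 5.86), 1.33 at MA (0.649 to 2.80) and 6.76 at SCP (4.26 to 11.3). It was 5.07 times as high at SCP as at MA (2.06 to 12.2) and 3.38 times as high as at PMA (1.02 to 10.2), by the conditional odds ratio interval on the reads. A known product and an opposite arm could be set against each other in 48 hairpins of Taichung65-4x. Their median log2 ratio was 2.56, 2.50 and 2.17 in stage order, and miR6250 stood at 1.00, 0.42 and 2.76. Its change of 2.34 from MA to SCP was the largest of the 48, whose median change was 0.07 with quartiles of −0.47 and 0.66. From PMA to SCP its change of 1.76 was at rank 3 of the 48, whose median change was 0.04.

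**Figure D3:**
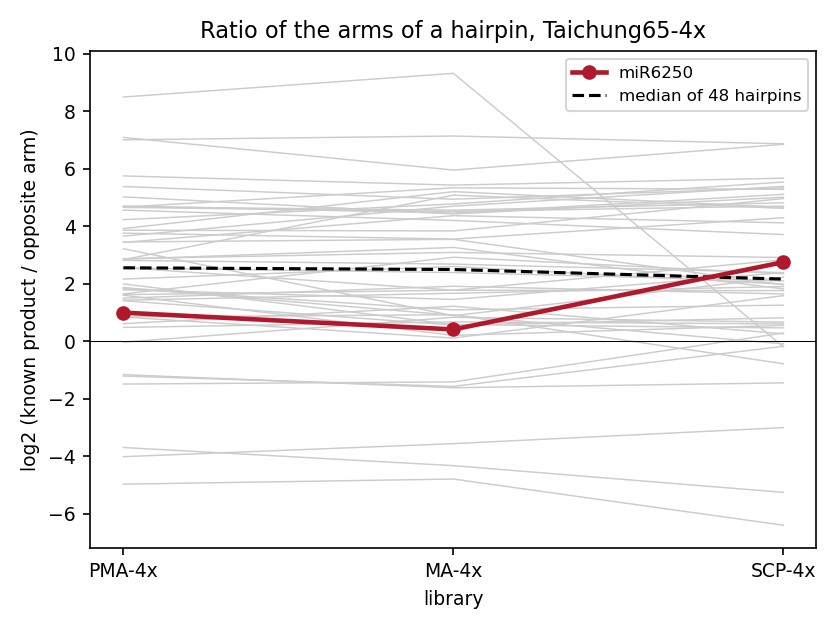
Log2 ratio of the known product to the opposite arm for 48 hairpins (grey lines) in the Taichung65-4x libraries of the 3 stages, with miR6250 in red and the median dashed; a listed 0 was set at 0.01. miR6250 lies under the median at PMA (1.00) and MA (0.42) and above it at SCP (2.76).

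Folded against each other, the sequences of the arms formed 13 base pairs with a predicted energy of −8.80 kcal/mol. All 7 seed bases of osa-miR6250_R+1 were paired, and its first base met base 18 of osa-MIR6250-p5, which leaves 3 bases of osa-MIR6250-p5 beyond it. The pairing was weaker than the median of the 48 hairpins (−15.3 kcal/mol), and 10 of them were weaker still.

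Of the 84 miRNAs listed for Taichung65-4x alone, osa-miR6250_R+1 and osa-miR1320-5p_L-1R+1 had the highest and second highest values. The other 81 rows without the members reached at most 33.5, with a median of 12.2 for the highest value over stages. osa-miR6250_R+1 by itself carried 2.75% of the signal of the 84 rows at PMA, 2.30% at MA and 11.0% at SCP. Next came PC-3p-46519_401, osa-MIR397a-p5 from the hairpin of a laccase miRNA, osa-miR5082_L-1, PC-3p-622999_25, and PC-5p-1920926_12 level with PC-5p-259427_69, with highest values of 33.5, 28.5, 27.9, 24.7 and 23.1. Both osa-miR6250_R+1 and osa-miR1320-5p_L-1R+1 passed 10 at all 3 stages, as 10 of the 84 did, while 57 passed it at 1 stage. osa-MIR6250-p5 passed it at 2.

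**Figure D4:**
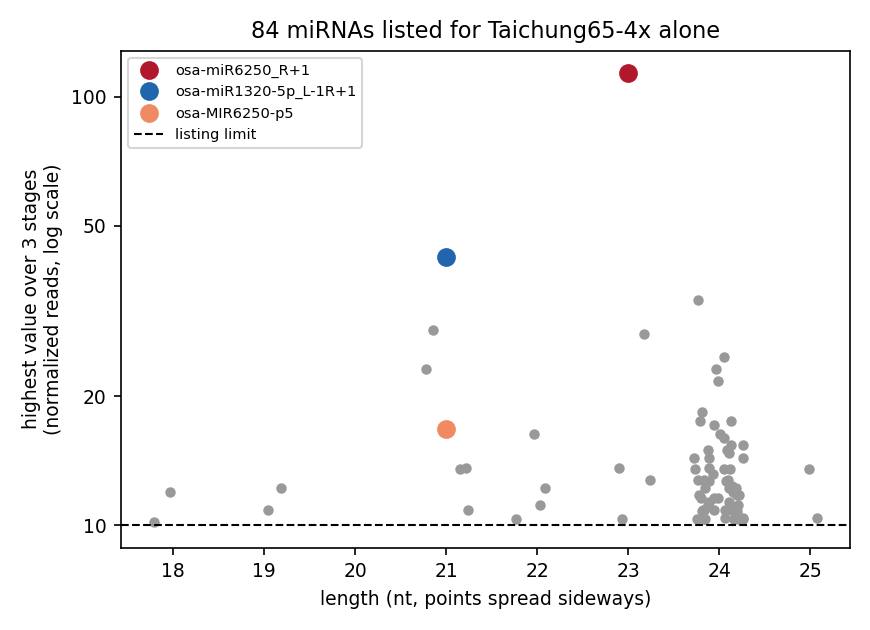
Highest value over the 3 stages (normalized reads, log scale) of the 84 miRNAs listed for Taichung65-4x alone, by length in nt, with the 3 products in colour and the listing limit dashed. Most points are 24 nt and lie close to 10, while osa-miR6250_R+1 (23 nt) and osa-miR1320-5p_L-1R+1 (21 nt) lie at 113 and 42.1.

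The 3 products differ from most of these 84 rows in form. Of the 84, 62 were 24 nt long and 48 of these began with A, whereas 7 were 21 nt and 5 were 23 nt. osa-miR6250_R+1 and osa-miR1320-5p_L-1R+1 begin with G, as do 14 of the 84, and osa-MIR6250-p5 begins with T, as do 11. A first T is the commonest among the 21 nt rows of the tetraploid table, at 107 of 205, and a first G is found in 30 of them. miR6250 was 1 of 3 hairpins with a pair of rows listed for the tetraploid alone. In another, osa-miR2090_R+2 stood at 5.44, 10.9 and 14.4 and osa-MIR2090-p3 at 1.36, 7.25 and 10.4 in stage order. The third, osa-MIR821a-p5, gave 2 overlapping forms with the same values, whose reads cannot be told apart.

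Other lists give the setting. Family numbers close to miR1320 imply no kinship. Of the 15 other rows with such numbers, 5 of the 12 tested were higher in SCP-4x than in SCP-2x and none was lower, with a median of 0.94 on the log2 scale and 0.02 for all miRNAs, unlisted rows being set at 10. Those listed for the tetraploid alone were osa-miR1319a (10.9, 12.7 and 17.1 in stage order), osa-miR1423-3p_R+3 (5.44, 10.9 and 5.58) and osa-MIR1440b-p5_1ss19TC (6.11, 13.1 and 17.5). Among the families of long miRNAs, which DICER-LIKE3 makes, 7 of 12 were higher at SCP and none was lower (median 1.05). At MA 4 of 12 long miRNAs were higher and 0 lower (median 0.78), and at PMA 0 of 14 were higher or lower (median −0.41). For the rows with numbers close to miR1320, 1 of 14 was higher and 0 lower at MA (median 0.23). At PMA 1 of 13 of those was higher and 1 lower (median 0.01). Over all miRNAs 13.4% were higher in SCP-4x and 10.2% were lower. Of the other 21 nt miRNAs, the length of 2 of the members, 3 of 182 were higher in SCP-4x and 33 were lower (median −0.45). From MA to SCP in Taichung65-4x 7 of 175 of these rose and 61 fell. Of the other 23 nt miRNAs, 1 of 6 rose at that step and none fell. Opposite arms other than osa-MIR6250-p5 rose in 5 of 127 and fell in 36 at that step (median −0.63). Over all miRNAs 9.23% rose from MA to SCP and 21.3% fell (median −0.31).

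The stage course most like that of osa-miR6250_R+1 in the tetraploid belonged to PC-5p-588719_30 (1.36, 1.81 and 10.4), which is listed for Taichung65-4x alone. That row only just passed 10 at SCP, and its course rests on few reads. Likeness is the Euclidean distance between courses of log2(value + 1) centred over the 3 libraries, and it was 0.40 here, against a median of 2.51 over 440 rows. osa-miR164d, of a family that targets NAC genes, came next with 2.83, 4.15 and 48.4 in the tetraploid (distance 0.84), against 1.68, 5.35 and 43.5 in the diploid. The third was osa-MIR1871-p5 (0.86), with 2.72, 6.34 and 19.9 in the tetraploid, against 13.5, 5.66 and 9.77 in the diploid.

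osa-MIR6250-p5 was nearest to PC-5p-1019442_15, osa-MIR5542-p3_1ss17AG and osa-MIR810b-p5 (distances 0.05, 0.06 and 0.07). osa-miR1320-5p_L-1R+1 was nearest to osa-miR1846d-5p (0.05), with 50.3, 23.6 and 25.5 in the tetraploid, against 40.4, 42.5 and 19.5 in the diploid. osa-miR1862d, a long miRNA, and osa-miR160e-5p, whose family targets auxin response factor genes, followed at 0.12 and 0.13. Each course has only 3 points, 1 library each, so these distances are a description.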

How the data were processed

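Small RNA libraries of rice anthers, 1 for each of 6 groups, were sequenced by the authors on an Illumina HiSeq2500. They filtered reads with ACGT101-miR and mapped them by BLAST to miRBase precursors and the rice genome, allowing 1 mismatch and shifted ends. No source used here gives the genome build. The deposited signal is the copy number times a library's correction factor, which a regression over shared sequences gave, and the authors kept rows over 10 in at least 1 stage. Whether a value holds the printed read alone or its cluster is not stated.

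The value of 1 read was taken as the largest step that made at least 70% of values whole (tolerance 0.01), between 72.3% and 76.1% of them. A listed 0 was set at 0.01 and an unlisted product at 10. Calls needed a larger value over 10 and over 2-fold change, without the authors' chi-square or Fisher test, which compares libraries. Intervals are exact Poisson, exact binomial or conditional odds ratio intervals (95%, SciPy 1.17.1), and arms were paired with RNAduplex of ViennaRNA 2.7.2. Steps, calls and intervals were tried on simulated counts with Poisson error, which hold no variation between libraries or plants. Named rows are the members, rows of their families or sharing 16 bases, the 3 nearest courses of each, the 5 highest values of the other rows for the tetraploid alone and rows at the limit. The rows sharing 10 bases, the other hairpins with a pair of rows for the tetraploid alone and the 3 rows with numbers close to miR1320 were named after their values were seen. The members and lists were chosen with earlier results of these data known. Alternatives changed the scaling, fold, pseudocount, level, matching and measure of likeness one at a time.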

Additional observations from a re-analysis of the deposited data

How the results depend on the processing

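No paired analysis was possible because each group has 1 library and the labels number no replicates. For the same reason no replicate could be left out. Of the bounds against Taichung65-2x, the count of products over 2-fold became 2 at PMA with clean reads or a fold of 1.5, 2 at MA with each of the 3 other scalings or a fold of 1.5, and 1 at SCP with a fold of 4 or with 10 added to both values. The log2 bound of osa-miR1320-5p_L-1R+1 at PMA became 1.38 with 10 added, and that of osa-miR6250_R+1 at SCP became 3.85 with equal sums and 2.62 with 10 added. For MA against PMA the count that rose became 1 under each scaling, and the count that fell became 0 under each scaling, a fold of 4, 10 added or a level of 50. For SCP against PMA the count that rose became 2 under each scaling or a fold of 1.5, and the count that fell became 1 with a fold of 1.5. There the log2 ratio became 3.64 and 3.77 for osa-miR6250_R+1 and 0.15 and 0.28 for osa-miR1320-5p_L-1R+1 with equal sums and clean reads. The rise of osa-miR6250_R+1 from MA to SCP passed 2-fold under every alternative run. A limit of 20 in both tables leaves 41 rows for the tetraploid alone. With only rows over 50 compared, 0 of the 3 nearest courses of osa-miR6250_R+1 were shared. Over all miRNAs the 3 scalings gave 76 to 84 that rose and 32 to 41 that fell for MA against PMA, 61 to 95 and 29 to 43 for SCP against MA, and 117 to 175 and 79 to 143 for SCP against PMA. The shift of a scaling is the same for all rows of a library. Depth limits osa-MIR6250-p5 most, with 7 to 21 reads.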

Other observations

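Among miRNAs over 50 in at least 1 stage, the courses most like that of osa-miR6250_R+1 belonged to osa-MIR167j-p3, osa-miR172a and osa-miR164a. osa-miR172a and osa-miR164a are of the families known for AP2-like and NAC genes, whereas osa-MIR167j-p3 is an opposite-arm product of a miR167 hairpin. osa-MIR167j-p3 stood at 9.51, 20.8 and 58.2 in the tetraploid, against 6.73, 22.6 and 83.5 in the diploid, in stage order. osa-miR172a stood at 12.2, 29.0 and 89.1 in the tetraploid, against 17.5, 45.8 and 145 in the diploid. osa-miR164a stood at 113, 168 and 308 in the tetraploid, against 152, 158 and 309 in the diploid. All 3 were higher at SCP than at PMA in both ploidies, and their distances of 0.92, 0.93 and 1.22 from osa-miR6250_R+1 are larger than those of the nearest rows of lower level.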
